A study of Rattus norvegicus with 6 samples.

Results

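Axon guidance genes code for the secreted and membrane-bound cues that steer growing axons and for the receptors that read them. The gene symbols of the semaphorins, plexins, neuropilins, ephrins, Eph receptors, Slits, Robos, netrins, Unc5 receptors and Dcc were matched in the deposited gene table of a rat nerve injury study, and 1 row was kept for each symbol, a protein-coding row first and then the row with the largest summed count. This gave 68 genes of the 27943 symbols in a table of 43350 rows. By role 35 of them were ligands and 33 were receptors. The rule took genes by name and used no difference between the groups, although the set was drawn up with earlier results of these data known. The table's own KEGG annotation placed 63 of the 68 rows in its axon guidance pathway.

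The samples were ipsilateral lumbar dorsal root ganglia (DRG), which hold the cell bodies of sensory neurons, from male Sprague-Dawley rats that were 6 to 8 weeks old on arrival. In the chronic constriction injury (CCI) group loose absorbable knots were tied around the left sciatic nerve, and in the sham group, for which the labels list no treatment, the methods describe exposure of the nerve without tying. Lumbar 4-6 ganglia were taken 11 days after surgery and after behavioural testing, when rats with the expected behaviour were kept, so the groups were not free of selection. Each group had 3 libraries, which the methods describe as 1 rat each and the library protocol of the labels calls pooled.

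Class 3 semaphorins are secreted and bind neuropilins, which signal together with plexins, whereas most other semaphorins are anchored in the membrane and bind plexins directly. Ephrins are tied to the cell surface and are read by Eph receptor tyrosine kinases, Slits are read by Robos, and netrins by Dcc and the Unc5 receptors. These systems guide sensory axons during development, and many of the genes stay active in adult ganglia, where neurons, satellite glia, Schwann cells and other cells can express them.

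The libraries held 75423546 to 87615743 counted reads. Markers of sensory neurons (10 of 10 tested), satellite glia (7 of 7) and Schwann cells (6 of 6) were abundant, as the tissue label requires, and none of these 23 markers passed the limits for a difference between the groups (a call, as defined with the comparison). At an unadjusted p under 0.05 there were nevertheless 5 of the 10 neuron markers, with log2 fold changes of -0.54 for Nefh, -0.19 for Trpv1, -0.15 for Calca, 0.25 for Prph and 0.31 for Tubb3, each with groups that did not overlap. The same held for 1 satellite glia marker (Cdh19, 0.37) and 1 Schwann cell marker (Ncmap, -0.26). The median log2 fold changes of the neuron, satellite glia and Schwann cell lists were -0.13, -0.10 and -0.14, so Cdh19 went against its list. Macrophage markers had a summed level of 34.2 to 50.2 FPKM in CCI against 22.8 to 30.6 FPKM in sham, with 4 of 9 called higher. All 6 injury genes (Atf3, Gal, Npy, Sprr1a, Gap43 and Sox11) were called higher, with a summed level of 408.1, 250.8 and 221.2 FPKM in CCI 1, 2 and 3 and 64.1 to 72.0 FPKM in sham. Skeletal muscle markers summed to 4.22 to 8.13 FPKM in CCI and to 129.5, 5.16 and 18.3 FPKM in sham 1, 2 and 3, with 5 of 7 called lower. Fibroblast markers summed to 389.2 FPKM in CCI 1 and to 580.3 to 684.9 FPKM in the other libraries, and 0 of 5 tested were called. Of the T cell list, Cd3e, Cd3d, Cd2 and Cd8a were near 0 and too low to be tested. Cd4, the only tested gene of that list, was called higher (log2 fold change 0.68, SE 0.14). A change in T cells cannot be read from this gene alone. B cell markers were below 1 FPKM in sum, and endothelial markers ran from 14.2 to 21.1 FPKM with Cldn5 listed at 0 in every library. Whether these differences bear on the level of a member was not tested. In bulk tissue, fewer cells of a type and less RNA per cell cannot be told apart.

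Levels are given as FPKM, which divides reads by row length and depth and allows genes to be compared. The members spanned the whole range from near absence to strong expression, with a median of 4.0 FPKM over the 68 genes and 16 genes at 10 FPKM or more. The plexin Plxna2, a receptor for class 6 semaphorins and a signalling partner of neuropilins, was the most abundant with a mean of 32.1 FPKM over the 6 libraries (28.1 to 34.1). Slit1 followed with 25.7 FPKM (24.4 to 28.2), and the membrane-anchored ligand Sema7a with 23.2 FPKM (15.0 to 30.0). Next came the ligands Sema3c at 22.2 FPKM, Sema5a at 21.6 FPKM and Sema3b at 18.0 FPKM. The ranges of the 6 libraries overlapped between every pair of neighbours in this order, so that no gene stood clear of the next one down.

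Plexins and neuropilins were the most abundant receptor families. All 9 plexins lay between 6.84 FPKM (Plxnb1) and 32.1 FPKM (Plxna2), and the neuropilins Nrp1 and Nrp2 at 11.5 and 12.3 FPKM. Eph receptors were lower, with EphA members between 0.27 FPKM (Epha1) and 3.19 FPKM (Epha5) and EphB members between 1.9 FPKM (Ephb2) and 8.30 FPKM (Ephb6), a family member without kinase activity. The netrin receptors were also low, with Dcc at 0.75 FPKM and the most abundant of the group, Unc5b, at 2.80 FPKM.

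Among the ligands outside the semaphorins, Slit1 stood above Slit2 (8.22 FPKM) and Slit3 (5.98 FPKM), Efnb2 (9.999 FPKM), Efna5 (9.22 FPKM), Efna1 (9.20 FPKM) and Efnb1 (8.18 FPKM) led the ephrins, and Ntn1 (3.65 FPKM) and Ntn4 (3.25 FPKM) the netrins. Robo2, at 14.8 FPKM, was the leading Slit receptor, above Robo1 at 4.14 FPKM. Every library of Robo2 lay above every library of Robo1.

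**Figure D1:**
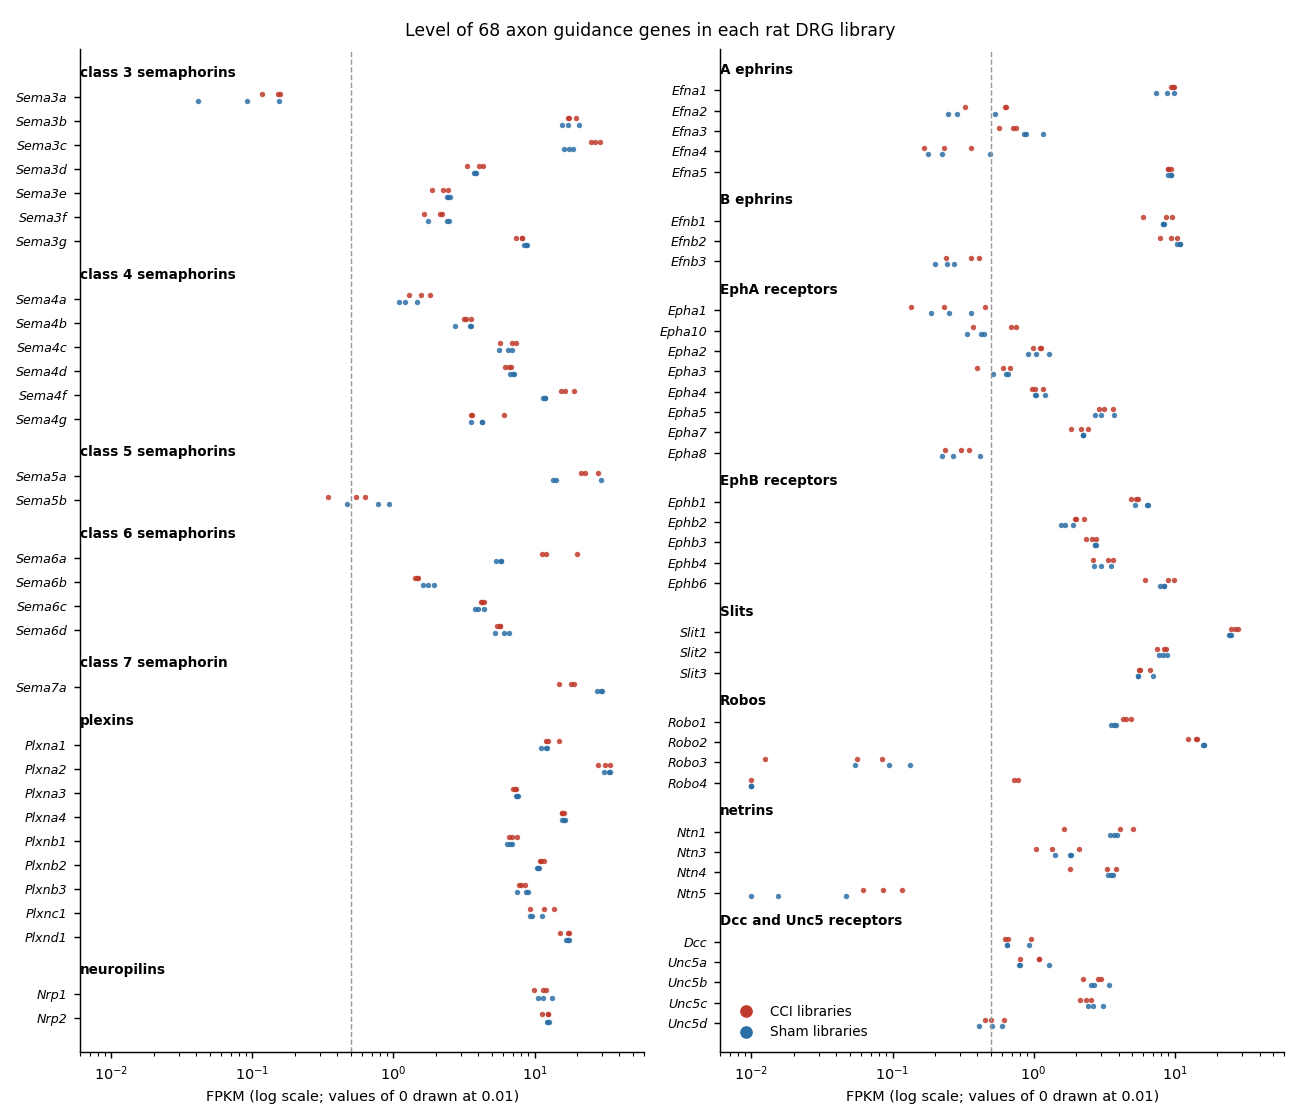
FPKM on a log axis for the 68 members by family, with 1 point per library (red, 3 CCI libraries, blue, 3 sham libraries) and a dashed line at the 0.5 FPKM used as the limit for testing. Plexins and neuropilins all lie above 6 FPKM, while 9 members have means left of the dashed line.

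A row was tested when its mean over the 6 libraries reached 0.5 FPKM, and 59 of the 68 members did. The 9 others had means of 0.05 to 0.44 FPKM and were the ephrins Efna2, Efna4 and Efnb3, the Eph receptors Epha1 and Epha8, the netrin Ntn5, the Slit receptors Robo3 and Robo4, and the secreted ligand Sema3a. The level of Sema3a, a repellent of sensory axons in the embryo, was 0.12 FPKM. The counts of Robo4, an endothelial member of its family, were 0, 197 and 173 in CCI 1, 2 and 3 and 0 in every sham library. Because Cldn5, another endothelial gene, was listed at 0 throughout while Cdh5, Kdr, Tek and Vwf were not, a 0 here may also be a failed estimate, and no fold is given.

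CCI was compared with sham by edgeR's quasi-likelihood test across all 26663 rows with enough signal. The limits for a call were those of the study, a log2 fold change of 0.58 or more in either direction together with p under 0.05 before adjustment. Of the 59 tested members, 2 ligands were called higher in CCI (Sema6a and Sema3c) and 1 ligand was called lower (Sema7a). These shares, 3.39% higher and 1.69% lower, lay near those over all tested rows, where 2.57% were called higher and 1.26% lower. Among 13596 tested protein-coding rows with 1 row per symbol they were 2.41% and 0.838%. After Benjamini-Hochberg adjustment of edgeR's quasi-likelihood p-values 0 of the 59 members lay under 0.05, a limit that 0.0938% of all rows passed, and the smallest adjusted value was 0.0748. At an unadjusted p under 0.05 there were 7 members (11.9%), against 10.7% of all rows.

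The members as a whole stayed close to the centre. Their median log2 fold change was -0.03 (25 above and 34 below 0), with 0.01 for all tested rows. A log2 fold change of at most 0.3 in size was found for 51 of the 59 (86.4%), against 71.4% of all rows. Those rows were not matched to the members for gene type or level, so the gap is not read as a trait of the members. By role, 3 of 30 tested ligands and 0 of 29 tested receptors were called, and 5 ligands and 2 receptors had an unadjusted p under 0.05. The difference between ligands and receptors was not tested. Fold changes of the receptors ran from -0.24 (Robo2) to 0.58 (Epha10) on the log2 scale and those of the ligands from -0.76 (Sema7a) to 1.35 (Sema6a).

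**Figure D2:**
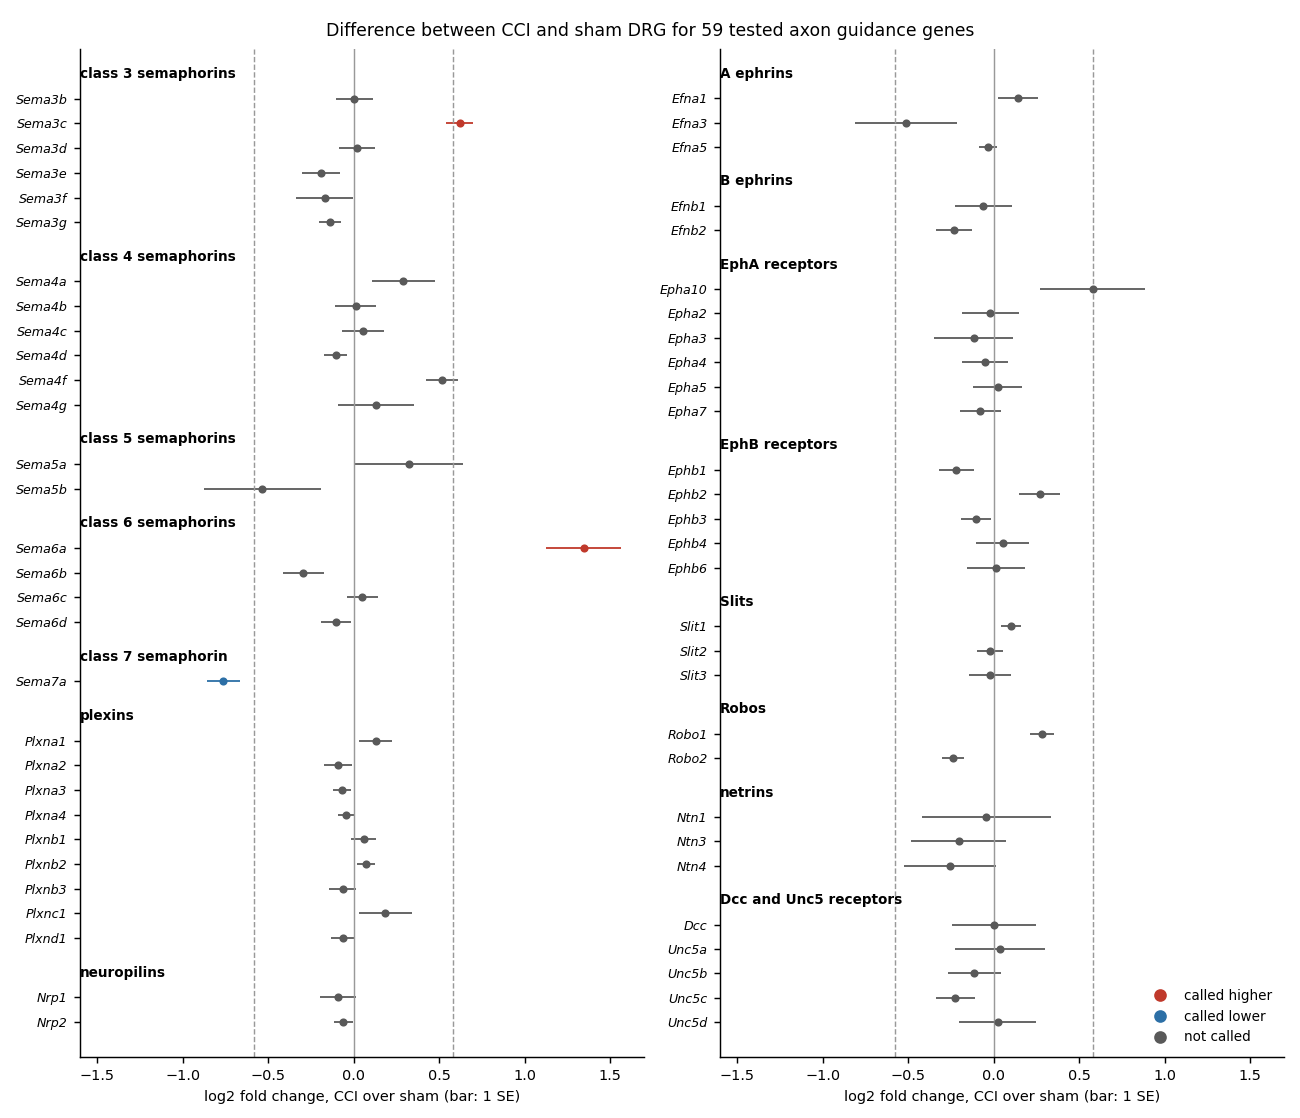
log2 fold change of CCI over sham with 1 standard error for the 59 tested members by family, with dashed lines at the limits of 0.58 in either direction. Sema6a (1.35) and Sema3c (0.62) lie beyond the right line and Sema7a (-0.76) beyond the left one, while the plexins lie between -0.09 and 0.18.

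Sema6a, a transmembrane semaphorin that binds the plexins Plxna2 and Plxna4, showed the largest difference among the members. Its normalised level, in CPM, reads relative to each library's TMM-scaled total, was 167, 100.8 and 94.0 in CCI 1, 2 and 3 and 48.5, 45.1 and 48.7 in sham 1, 2 and 3. The lowest CCI library was thus above every sham library, and CCI 1 stood above the other CCI libraries. The means were 121 ± 40.2 CPM in CCI and 47.5 ± 2.04 CPM in sham (SD, n = 3 each), a log2 fold change of 1.35 (SE 0.22) or 2.54-fold, with an adjusted p of 0.109 in edgeR's quasi-likelihood test. CCI 1 was also the library with the highest summed level of injury genes, and without it the log2 fold change of Sema6a was 1.04. The gene lies on chromosome 18 from 41329580 to 41451294 on the minus strand of the genome the authors call V101. A row named AABR07031972 on the same strand overlaps it and held 6.98% as many reads as Sema6a, with a log2 fold change of 0.82 (SE 0.20), so reads of the pair may have been divided between them.

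Neither of these receptors of Sema6a was called. Plxna2 measured 341, 384 and 411 CPM in CCI and 379, 412 and 419 CPM in sham, with a log2 fold change of -0.09 (SE 0.08). For Plxna4, the values were 238, 229 and 230 CPM in CCI and 241, 243 and 236 CPM in sham, a log2 fold change of -0.04 (SE 0.05). The groups overlapped for both genes. The other class 6 members, none of them called, had log2 fold changes of -0.29 (SE 0.12) for Sema6b, 0.05 (SE 0.09) for Sema6c and -0.10 (SE 0.09) for Sema6d.

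Sema3c is a secreted ligand that acts through neuropilins together with plexins, among them Plxnd1. It measured 161, 150 and 140 CPM in CCI 1, 2 and 3 and 97.0, 105 and 91.2 CPM in sham 1, 2 and 3. The groups did not overlap, and the spread within each was small. The means were 150 ± 10.8 CPM in CCI and 97.8 ± 7.10 CPM in sham (SD, n = 3 each), a log2 fold change of 0.62 (SE 0.08) or 1.54-fold, with an adjusted p of 0.0789 in edgeR's quasi-likelihood test. Its size lay just above the limit of 0.58, and without CCI 1 it was 0.57, below the limit, with an unadjusted p of 0.00103 or less in every fit tried. The row spans chromosome 4 from 14318274 to 14490446 on the minus strand.

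None of the receptors and relatives of Sema3c was called. Nrp1 had a log2 fold change of -0.09 (SE 0.10), Nrp2 of -0.06 (SE 0.06) and Plxnd1 of -0.06 (SE 0.07). The remaining tested class 3 ligands were Sema3b at 0.00 (SE 0.11), Sema3d at 0.02 (SE 0.11), Sema3e at -0.19 (SE 0.11), Sema3f at -0.17 (SE 0.17) and Sema3g at -0.14 (SE 0.06) on the log2 scale. The rows of Sema3b and Sema3f are joined with those of Lsmem2 and Gnat1, so their counts are less certain.

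Sema7a, the only class 7 semaphorin and the only one held in the membrane by a GPI anchor, was called lower. Its level was 59.2, 74.9 and 70.7 CPM in CCI 1, 2 and 3 and 118, 111 and 118 CPM in sham 1, 2 and 3. Every CCI library lay below every sham library, with no overlap. The means were 68.3 ± 8.17 CPM and 116 ± 3.93 CPM (SD, n = 3 each), so that CCI stood at 58.99% of sham, a log2 fold change of -0.76 (SE 0.09) with an adjusted p of 0.0748 in edgeR's quasi-likelihood test. In FPKM, Sema7a went from 29.1 ± 1.10 in sham to 17.3 ± 2.12 in CCI (SD, n = 3 each).

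The table also held a second Sema7a row of 518 bases, which starts 160 bases after the end of the first row on chromosome 8 (62723788 to 62745868, plus strand). That row, which had not been used to represent the gene, measured 8.92, 10.9 and 10.95 CPM in CCI and 15.6, 15.8 and 17.4 CPM in sham. The groups did not overlap there either, and it was called lower with a log2 fold change of -0.67 (SE 0.11). It lies beside the first row on the same strand and was counted in the same libraries, so it is no independent support. Of 16 such additional rows for 15 members, 15 were tested and this was the only one called. The known receptors of Sema7a are Plxnc1 and integrins with the beta 1 chain. Plxnc1 measured 73.7, 92.2 and 110 CPM in CCI and 76.7, 74.5 and 91.2 CPM in sham, overlapping groups with a log2 fold change of 0.18 (SE 0.15). Itgb1, chosen for its link to Sema7a after its values had been seen, measured 497, 502 and 454 CPM in CCI and 385, 379 and 376 CPM in sham. These groups did not overlap, and the log2 fold change of 0.35 (SE 0.06) remained under the limit of 0.58. The integrin chain Itga1, looked up alongside it, had overlapping groups and a log2 fold change of 0.09 (SE 0.11).

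**Figure D3:**
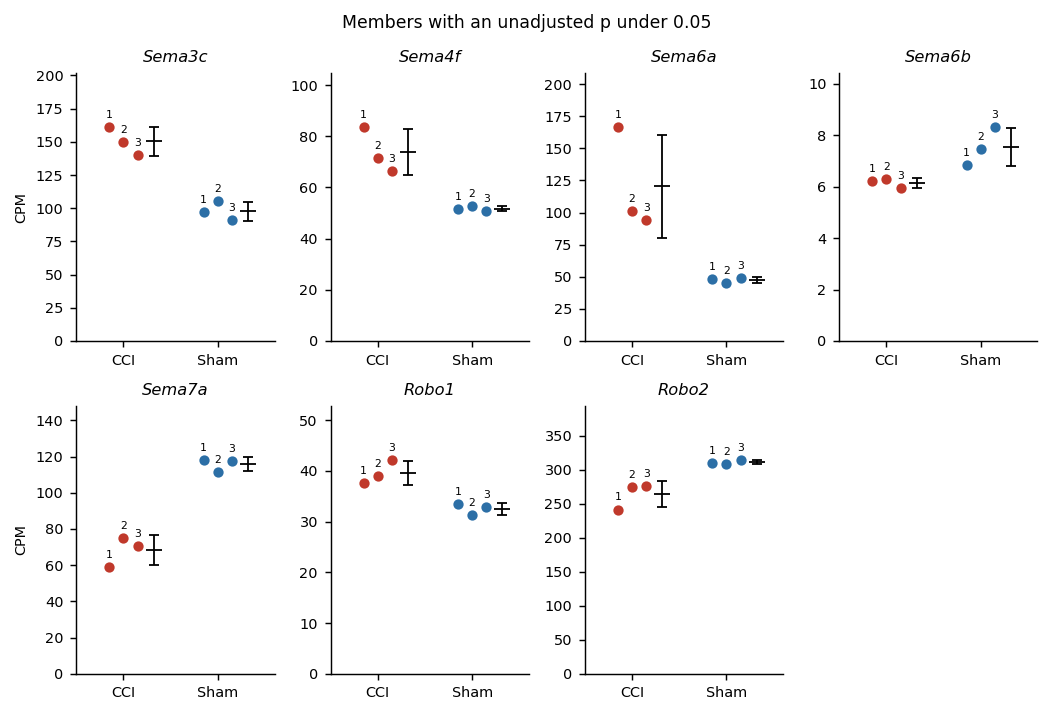
CPM of each numbered library for the 7 members with an unadjusted p under 0.05, with the mean and SD of the 3 libraries of a group as a black bar beside them. In all 7 panels the CCI and sham points are apart, by the widest margin relative to the sham level for Sema6a. CCI 1 is the highest point for Sema6a (167 CPM), Sema3c (161 CPM) and Sema4f (83.7 CPM). It is the lowest for Sema7a (59.2 CPM) and Robo2 (242 CPM).

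The share of members with groups that did not overlap was 10.2% in each direction (6 higher and 6 lower of 59). Over all tested rows, 8.63% had every CCI value above every sham value and 8.7% the reverse, so this count was near the background. Besides the 3 called genes, those apart in the upward direction were Sema4f, Robo1, Ephb2 and Plxnb2, and in the downward direction Robo2, Sema6b, Sema3g, Efnb2 and Efna3.

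Sema4f, a transmembrane ligand, had the smallest unadjusted p among the members that were not called. Its values were 83.7, 71.5 and 66.3 CPM in CCI 1, 2 and 3 and 51.6, 52.6 and 50.7 CPM in sham 1, 2 and 3. All CCI libraries were above all sham libraries, and the log2 fold change was 0.52 (SE 0.09) with an unadjusted p of 0.00107 (edgeR). The other class 4 ligands had log2 fold changes between -0.11 (Sema4d) and 0.29 (Sema4a), and none had an unadjusted p under 0.05.

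The Slit receptors Robo1 and Robo2, both on chromosome 11, differed from sham in opposite directions by small amounts. Robo1 measured 37.7, 38.9 and 42.2 CPM in CCI and 33.5, 31.3 and 32.8 CPM in sham, a log2 fold change of 0.28 (SE 0.07) with an unadjusted p of 0.00538 in edgeR's quasi-likelihood test. Robo2 measured 242, 275 and 276 CPM in CCI and 311, 309 and 315 CPM in sham, a log2 fold change of -0.24 (SE 0.06) with an unadjusted p of 0.009 in the same test. Neither pair of groups overlapped, and both differences were under the limit of 0.58. Adjusted p in the same test was 0.236 for Robo1 and 0.273 for Robo2. With the edgeR exact test the unadjusted p was 0.0568 for Robo1 and 0.0750 for Robo2. None of their ligands was called, with log2 fold changes of 0.10 (SE 0.06) for Slit1, -0.02 (SE 0.08) for Slit2 and -0.02 (SE 0.12) for Slit3.

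Among ephrins and Eph receptors no gene was called. Efnb2, a transmembrane ephrin, measured 36.5, 44.0 and 48.2 CPM in CCI and 50.6, 51.3 and 49.3 CPM in sham, with a log2 fold change of -0.23 (SE 0.11). Efna5, the most abundant GPI-anchored ephrin, held 72.1 to 75.9 CPM in CCI and 73.2 to 76.3 CPM in sham, a log2 fold change of -0.03 (SE 0.05). The first pair of groups stood just apart and the second overlapped.

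Ephb2 measured 10.95, 12.5 and 10.7 CPM in CCI and 9.08, 8.69 and 10.6 CPM in sham, with a log2 fold change of 0.27 (SE 0.12). Ephb1 lay on the other side at -0.22 (SE 0.10), and Ephb3, Ephb4 and Ephb6 between -0.10 and 0.05. The EphA receptors from Epha2 to Epha7 lay between -0.12 and 0.02 on the log2 scale. Epha10, a low member without kinase activity, measured 2.53, 2.33 and 1.249 CPM in CCI against 1.42, 1.51 and 1.15 CPM in sham. Those groups overlapped, and its log2 fold change of 0.58 (SE 0.31), which fell short of the limit before rounding, had an unadjusted p of 0.104 in edgeR's quasi-likelihood test.

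Netrins and their receptors were not called either. Ntn1 measured 3.38, 10.4 and 8.26 CPM in CCI 1, 2 and 3 and 7.52, 7.13 and 8.02 CPM in sham, a log2 fold change of -0.04 with an SE of 0.38. The value of CCI 1 was far below the others, and the highest CCI library was 3.07 times the lowest. A second Ntn1 row, not used to represent the gene, held more reads. It measured 9.80, 35.3 and 26.6 CPM in CCI and 25.2, 20.7 and 23.3 CPM in sham. Ntn4 was also lowest in CCI 1, with 4.45, 8.07 and 9.37 CPM in CCI and 8.25, 9.05 and 8.84 CPM in sham. Ntn3 had overlapping groups and a log2 fold change of -0.20 (SE 0.28). Its second row, with more reads, had -0.31 (SE 0.13) and groups that did not overlap. CCI 1 was the library with the low fibroblast markers given above, and their part in these values was not tested. Among the receptors, Unc5c had a log2 fold change of -0.22 (SE 0.12), Unc5b of -0.11 (SE 0.16), Unc5a of 0.04 (SE 0.26), Unc5d of 0.02 (SE 0.23) and Dcc of 0.00 (SE 0.25).

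Spread within a group limited some other members. The median coefficient of variation over the 59 tested members was 10.1% in CCI and 8.61% in sham, and the highest library exceeded the lowest by more than 1.5 times for 11 members in CCI and 3 in sham. The widest spread in sham was that of Sema5a, a ligand with thrombospondin repeats, at 163, 156 and 345 CPM in sham 1, 2 and 3. In CCI it held 245, 264 and 321 CPM, so that the groups overlapped through sham 3 alone, with a log2 fold change of 0.32 (SE 0.32). Its relative Sema5b, at 0.61 FPKM, had a log2 fold change of -0.53 (SE 0.34) and overlapping groups.

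Other components of the same systems were examined as a list of 87 partner genes, of which 84 were tested: co-receptors and adhesion molecules, other cues and receptors, collapsin response mediators and further effectors. The list had 2 genes called higher and 0 called lower, 2.38% and 0% against 2.57% and 1.26% of all tested rows, with a median log2 fold change of 0.04 against 0.01. Before adjustment 25 of the 84 (29.8%) had p under 0.05 (edgeR), against 10.7% of all rows, which were not matched to the list for gene type or level. After adjustment over all rows 1 gene stayed under 0.05. That gene was Flrt3, an adhesion protein that binds Unc5 receptors and Robo1, which measured 106, 75.2 and 69.8 CPM in CCI and 27.5, 28.4 and 27.5 CPM in sham. The sham libraries were nearly equal and all CCI libraries were far above them, with a log2 fold change of 1.59 (SE 0.16) or 3.00-fold and an adjusted p of 0.0444 in edgeR's quasi-likelihood test. Fes, a tyrosine kinase that relays semaphorin signals, was low at 3.78, 3.82 and 3.39 CPM in CCI and 2.72, 1.67 and 2.08 CPM in sham, a log2 fold change of 0.76 (SE 0.22). That call was lost with limma on log2(FPKM + 1), at 0.38, and Fes was not tested when a mean of 1 FPKM was required. Macrophages and other myeloid cells also express Fes, and 4 of the 9 macrophage markers given above were called higher in CCI. Their part in the Fes value was not tested.

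By sublist, 1 of 16 co-receptors and adhesion genes and 1 of 15 response mediators and plexin effectors were called, and 0 of 18 other cues and receptors and 0 of 19 Robo, netrin and Eph effectors. Smaller differences without overlap, picked after their values were seen, included Gpc1, a heparan sulfate proteoglycan that binds Slits, with a log2 fold change of 0.48 (SE 0.10), Chl1, an adhesion partner of neuropilin, with 0.54 (SE 0.15), and Enah, an actin regulator downstream of Robo, with -0.28 (SE 0.04). Draxin, a secreted netrin antagonist of the list, was below the limit for testing at 0.45 FPKM. Its counts were 93, 69 and 52 in CCI and 8, 4 and 20 in sham, and the groups did not overlap.

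A wider view came from the 117 rows outside the members that the table assigns to the KEGG axon guidance pathway, 110 of them tested. Partner genes with that annotation, such as Fes, Neo1 and L1cam, are counted here as well, so the sets overlap. Of these, 1 (0.909%) was called higher (Fes) and 4 (3.64%) lower, against 2.57% and 1.26% of all tested rows. Their median log2 fold change was 0.02, and after adjustment over all rows 0 stayed under 0.05 in edgeR's quasi-likelihood test. An unadjusted p under 0.05 was found for 27 (24.5%), against 10.7% of all rows, which again were not matched for gene type or level. The lower rows were Ntng1, Ntng2, Lrrc4 and LOC100910732. Netrin-G1 and netrin-G2, coded by Ntng1 and Ntng2, are GPI-anchored relatives of the netrins that do not bind Dcc, and Lrrc4 codes for the transmembrane ligand of netrin-G2.

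Ntng1 measured 23.9, 31.7 and 35.8 CPM in CCI and 50.8, 43.9 and 46.0 CPM in sham, a log2 fold change of -0.62 (SE 0.15). Ntng2 measured 80.0, 84.6 and 72.4 CPM in CCI and 107.8, 136 and 112 CPM in sham, a log2 fold change of -0.58 (SE 0.11). Lrrc4 measured 12.9, 11.4 and 12.7 CPM in CCI and 24.6, 15.3 and 21.2 CPM in sham, a log2 fold change of -0.73 (SE 0.18). The groups were apart for all 3 genes. Leaving out CCI 1 (Ntng1, -0.47), sham 2 (Ntng2, -0.47) or sham 1 (Lrrc4, -0.57) took each under the limit of 0.58 with its direction kept. The relatives Lrrc4b and Lrrc4c, looked up after these values had been seen, had log2 fold changes of -0.03 (SE 0.09) and -0.06 (SE 0.06). LOC100910732 rested on sham 3, with 78.6 CPM there and 1.76 to 5.46 CPM in the other libraries.

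**Figure D4:**
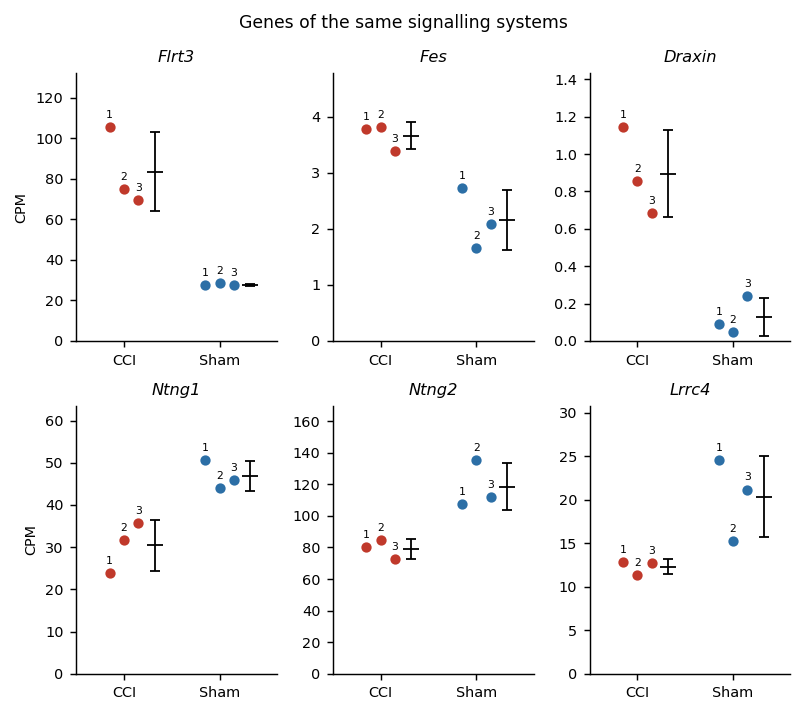
CPM of each numbered library for the partner genes Flrt3, Fes and Draxin (upper row) and for Ntng1, Ntng2 and Lrrc4 of the KEGG pathway (lower row), with the mean and SD of the 3 libraries of a group as a black bar. The CCI points lie above the sham points in the upper row (Flrt3, 69.8 CPM or more against 28.4 CPM or less) and below them in the lower row.

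The promoter sequences of the called members Sema7a and Sema3c are shown because these genes moved in opposite directions. That of the called member Sema6a is not shown. Each is given as the 250 bases before the RefSeq start in build GRCr8. RefSeq entries were found for 53 of the 68 members, and the start may not be the one used in these ganglia. Capitals mark the GC box GGGCGG on either strand.
Sema7a (chr8:67244068-67244317, plus strand): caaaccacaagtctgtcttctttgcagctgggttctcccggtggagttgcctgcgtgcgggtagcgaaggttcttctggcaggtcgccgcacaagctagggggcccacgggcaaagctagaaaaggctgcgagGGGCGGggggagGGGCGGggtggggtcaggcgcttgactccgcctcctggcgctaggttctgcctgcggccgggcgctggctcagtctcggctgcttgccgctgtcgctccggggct
Sema3c (chr4:18699628-18699877, minus strand): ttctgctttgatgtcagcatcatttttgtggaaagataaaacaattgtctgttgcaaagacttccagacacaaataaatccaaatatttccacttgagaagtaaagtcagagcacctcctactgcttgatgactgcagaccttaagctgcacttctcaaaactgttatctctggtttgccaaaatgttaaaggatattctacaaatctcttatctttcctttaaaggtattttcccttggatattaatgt
The Sema7a window held 67.6% G and C with 2 GC boxes, and the Sema3c window 35.2% with none, beside a median of 51.2% over 33469 windows of the same length. A GC box occurred in 30.5% of all windows and in those of 29 of the 53 members. The AP-1 letters TGANTCA (6.34% of all windows) and the CRE letters TGACGTCA (1.59%), searched on both strands, were in neither sequence. These matches describe letters in a window and not binding, and they cannot show whether composition goes with the direction of a difference.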

How the data were processed

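The authors mapped paired-end reads of ribosomal RNA-depleted total RNA to the rat genome V101 with HISAT2 2.0 and merged assemblies with StringTie 1.3.0, per the submitters' processing notes. They deposited raw counts per row and the FPKM values made from them, with a count of 0 listed at a small constant. The strand setting of the counting is not given in the sources used here. The members and lists were chosen with earlier results of these data known. Rows whose FPKM averaged 0.5 or more (26663) were tested on their counts with edgeR 4.0.16 (quasi-likelihood, TMM factors 0.988 to 1.01, no covariate, R 4.3.3), and p-values were adjusted over all of them. CPM uses TMM-scaled totals. Genes named are those past the limits and, in each family, the most abundant member and that with the smallest p. An exact permutation test of 3 against 3 cannot go below p = 0.1 and was not used. Alternatives were other scaling factors, DESeq2 1.42.0, the edgeR exact test, limma 3.58.1 on log2(FPKM + 0.1) and log2(FPKM + 1), other filters and row choices, a replicate block and leaving out each library. The code was tested on simulated data in which 200 of 26663 rows were changed. With the quasi-likelihood test, 164 of the 200 and 2.91% of the unchanged rows passed the limits for a call. Small RNA libraries were not analysed here. The values of 1 partner sublist are not reported here. Counting error is larger for rows with few reads. The p-values weigh the difference between the groups against the spread between libraries, with the spread estimate moderated over all tested rows.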

Additional observations from a re-analysis of the deposited data

How the results depend on the processing

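Sema6a and Sema7a were called in the same direction in each alternative fit, with log2 fold changes of 1.04 to 1.496 and -0.83 to -0.67. Sema3c stayed between 0.57 and 0.68, and was under the limit of 0.58 without CCI 1 or without sham 3. The adjusted p of these genes depended on the tool, the rows tested and the libraries. With DESeq2, 4 members had an adjusted p under 0.05 (Sema3c, Sema4f, Sema6a and Sema7a), and with the edgeR exact test 3. With the quasi-likelihood test on protein-coding rows alone there were 2 (Sema3c and Sema7a), against 0 with that test on all rows and libraries. In the simulated data, 94 unchanged rows beside 124 changed ones reached an adjusted p under 0.05 with DESeq2. These numbers were 51 and 86 with the edgeR exact test, and 4 and 29 with the quasi-likelihood test. The adjusted p of DESeq2 and of the exact test was thus the looser limit there. Over all fits the adjusted p ran from 1.93e-08 to 0.329 for Sema6a, from 2.87e-07 to 0.227 for Sema3c and from 5.26e-09 to 0.237 for Sema7a, and for the partner gene Flrt3 from 6.65e-19 to 0.194. Leaving out 1 library gave 0 to 2 members at an adjusted p under 0.05, 1 to 4 called higher, 1 to 2 called lower and 2 to 4 partner genes called higher, with 4 without CCI 2, without CCI 3 or without sham 1. The 2 members at an adjusted p under 0.05 were Sema6a and Sema7a, without CCI 1. Without CCI 3, Sema4f (0.59) and Epha10 (0.83) were called, without sham 3 Sema5a (0.79), and without sham 1 Sema5b (-0.78). Partner genes called higher numbered 1 with limma on log2(FPKM + 1) and 1 with a mean FPKM of at least 1, Fes being the one lost. The median log2 fold change of the members moved between -0.063 and 0.0038. Ntng1, Ntng2 and Lrrc4 were added to the same fits after seeing the data. Ntng1 ran from -0.75 to -0.47, Ntng2 from -0.65 to -0.47 and Lrrc4 from -0.89 to -0.50, each below the limit of 0.58 in size in some fits.

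The replicate numbers did not pair the samples, since same-numbered libraries had correlations of -0.011, -0.022 and -0.055 in their deviations. With the replicate block, 2 members were called higher and 1 lower as before, and Ephb6 went from 0.01 to -0.016. The log2 fold change of Ntn1 was 0.051 with the row of the largest count sum. When 1 library was left out, log2 fold changes ran across 0 for Ntn1 (-0.38 to 0.30), Ntn4 (-0.48 to 0.0013), Epha5 (-0.077 to 0.16), Ephb6 (-0.13 to 0.19) and Unc5b (-0.20 to 0.023), and none of these was called.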
